A study of Mus musculus with 3 samples.

Results

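Genes that encode the machinery of DNA replication origins and forks were examined for peaks of HBO1, a histone acetyltransferase, in mouse embryonic stem cells (ESCs). The 48 genes were a list fixed by name, chosen because HBO1 binds the origin recognition complex and takes part in origin licensing, and all 48 were found among the 21911 protein-coding genes of the GENCODE vM21 annotation. No measured value entered the rule, although the list was chosen with earlier results of these data known. A gene was said to have a promoter peak when the edge of an HBO1 peak lay within 1 kb of any annotated transcription start site (TSS) of that gene.

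The cells were Oct1 deficient mouse ESCs, which lack the POU factor encoded by Pou2f1, so every sample shares that deficiency and no wild-type sample was analysed here. They were grown undifferentiated with the MEK inhibitor named PD03259010 in the labels (1 µM), the GSK3 inhibitor CHIR99021 (3 µM) and ascorbic acid, and were crosslinked for 10 min in 1% formaldehyde. The series comprised 2 ChIP samples for HBO1 and 1 input, sheared chromatin that was not immunoprecipitated, and the antibody label of the second ChIP sample reads HBO2 although its title reads HBO1. The authors deposited 1 peak list of 13823 peaks on mm10, and how the ChIP samples were combined is not given in the sources used here. The ChIP reads were not analysed here, so no value below has a spread between replicates, no p-value was computed, and intervals cover counting error only. The labelled cell type could not be checked against expression markers, since the values are peaks and input reads.

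The input held 31973678 aligned read ends, and 272 windows of 1 kb took 51.6% of them. In a window of 1 kb centred on the outermost TSS, the replication genes held a median of 62 input read ends of mapping quality at least 20, ranging from 8 at Rfc2 to 126 at Cdt1, against a median of 46 over all coding genes. Input within 1 Mb of the gene, relative to other windows of like GC content, ran from 0.902 at Orc4 to 1.20 at Rfc2 on the autosomes and was 0.573 at Pola1 on chromosome X.

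Replication starts at origins that carry the origin recognition complex (ORC). With Cdc6 and Cdt1, ORC loads the MCM2-7 helicase as an inactive double hexamer, a step called licensing, and Geminin blocks Cdt1 once S phase has begun. The kinase Cdc7 with its partner Dbf4 then helps Cdc45 and the GINS proteins join MCM2-7 as the active CMG helicase, behind which the sliding clamp, its loader and the DNA polymerases copy the strands. HBO1, encoded by Kat7, is known to bind Orc1, Mcm2 and Cdt1 and to acetylate histones at origins. The peaks described here are at the genes for these proteins, not at origins, and the files hold no measurement of replication.

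The promoters of 6 members are shown here as the sequence just upstream of the outermost TSS on GRCm38, the assembly that mm10 names. Rfc5, Orc2 and Dbf4 had the promoter peaks of highest −log10 q, and Mcm2, Orc1 and Cdt1 encode the known partners of HBO1. Capitals mark matches to CCAAT or its reverse complement ATTGG, the GC box GGGCGG or CCGCCC, the motif TTTGAA or TTCAAA, and E2F-type motifs. The E2F-type motifs searched were TTTGGCGC, TTTCCCGC, TTTGCCGC and TTTCGCGC on either strand. The stretches of Dbf4 and Orc1 are shorter because annotated UTRs of neighbouring transcripts were left out.
Rfc5 chr5:117389048-117389297 (minus strand): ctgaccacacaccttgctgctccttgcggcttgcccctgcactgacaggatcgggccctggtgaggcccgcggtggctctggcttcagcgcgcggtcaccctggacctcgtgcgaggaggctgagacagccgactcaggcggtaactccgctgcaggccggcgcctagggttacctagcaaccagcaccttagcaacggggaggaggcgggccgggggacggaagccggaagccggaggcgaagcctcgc
Orc2 chr1:58505110-58505359 (minus strand): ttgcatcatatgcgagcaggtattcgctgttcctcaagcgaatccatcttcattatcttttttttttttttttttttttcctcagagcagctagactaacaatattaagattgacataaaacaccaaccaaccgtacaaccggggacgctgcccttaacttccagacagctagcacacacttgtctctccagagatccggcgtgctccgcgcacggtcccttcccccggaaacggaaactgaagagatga
Dbf4 chr5:8422717-8422849 (minus strand): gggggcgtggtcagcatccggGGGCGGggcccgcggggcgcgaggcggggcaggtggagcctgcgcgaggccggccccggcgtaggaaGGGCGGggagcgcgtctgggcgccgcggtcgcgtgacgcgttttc
Mcm2 chr6:88898781-88899030 (minus strand): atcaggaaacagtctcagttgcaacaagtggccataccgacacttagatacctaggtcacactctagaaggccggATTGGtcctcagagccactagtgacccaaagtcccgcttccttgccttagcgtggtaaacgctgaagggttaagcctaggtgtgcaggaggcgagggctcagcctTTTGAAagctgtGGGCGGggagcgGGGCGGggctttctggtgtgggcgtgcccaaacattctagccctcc
Orc1 chr4:108579337-108579422 (plus strand): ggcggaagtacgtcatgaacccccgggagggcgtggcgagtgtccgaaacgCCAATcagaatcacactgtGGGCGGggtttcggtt
Cdt1 chr8:122567765-122568014 (plus strand): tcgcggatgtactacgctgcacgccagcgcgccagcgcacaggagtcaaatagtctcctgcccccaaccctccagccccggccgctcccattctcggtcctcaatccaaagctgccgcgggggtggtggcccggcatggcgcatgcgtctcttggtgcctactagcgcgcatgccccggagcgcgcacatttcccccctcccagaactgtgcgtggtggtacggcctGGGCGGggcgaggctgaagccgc
The stretches of Rfc5 and Orc2 held none of these motifs, and those of Dbf4 and Cdt1 held only GC boxes. The window used for counting motifs, from 250 bases before to 50 after the TSS, held further matches that are not printed: 1 CCAAT at Orc2, 1 TTTGAA and 1 GC box at Dbf4, 1 E2F-type motif and 1 CCAAT at Orc1, and 1 E2F-type motif at Cdt1. Rfc5 held none in that window either.

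Among subunits of the same helicase, Mcm5 and Mcm6 are shown side by side because their promoters held the same number of E2F-type matches while only Mcm6 had a promoter peak. This pair was chosen after the values were seen, and capitals mark the same motifs.
Mcm5 chr8:75109319-75109568 (plus strand): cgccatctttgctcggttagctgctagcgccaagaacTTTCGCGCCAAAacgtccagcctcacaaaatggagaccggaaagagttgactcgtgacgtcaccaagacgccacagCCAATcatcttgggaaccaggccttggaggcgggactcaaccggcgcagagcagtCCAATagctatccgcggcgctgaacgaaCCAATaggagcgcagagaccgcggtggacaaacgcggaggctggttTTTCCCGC
Mcm6 chr1:128359665-128359914 (minus strand): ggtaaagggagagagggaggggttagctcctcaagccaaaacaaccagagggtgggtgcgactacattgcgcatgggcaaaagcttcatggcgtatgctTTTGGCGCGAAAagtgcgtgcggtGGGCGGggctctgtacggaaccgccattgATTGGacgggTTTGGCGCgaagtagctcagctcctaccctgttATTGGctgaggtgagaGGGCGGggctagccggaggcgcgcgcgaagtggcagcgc
Each gene had 3 E2F-type matches, of which the farthest upstream overlapped its neighbour. Mcm5 had 3 CCAAT matches and no GC box, and Mcm6 had 2 of each.

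HBO1 peaks lay at the promoters of 18 of the 48 replication genes, or 37.5% (exact binomial 95% interval 24.0 to 52.6%). Over all coding genes the share was 21.7%, and over coding genes in the same decile of promoter GC content it was 21.9%, which would give 10.5 genes. Over coding genes in the same decile of the CpG observed/expected ratio, however, the share was 36.7%, which would give 17.6 genes. That ratio compares the CpG dinucleotides present in 1 kb around the outermost TSS with those its C and G content would give, and is high at CpG islands. The replication genes therefore had promoter peaks more often than genes of like GC content by count, and about as often as genes of like CpG ratio.

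The median CpG ratio was 0.793 over the members and 0.552 over all coding genes, while median GC content was 56.2% and 54.7%. A ratio of at least 0.6 was found at 40 of 48 members, or 83.3%, and at 45.9% of coding genes. Among promoters above this limit, 15 of 40 members and 38.0% of coding genes had a promoter peak. Below it, 3 of 8 members did, namely Mcm2, Mcm7 and Orc4, against 7.89% of coding genes. At each of these 3 genes the strongest promoter peak lay at a start downstream of the outermost TSS, on which the 1 kb used for the ratio was centred. Mcm7 and Orc4 also had a weaker peak that covered the outermost TSS, with a −log10 q of 8.67 and 2.34.

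**Figure D1:**
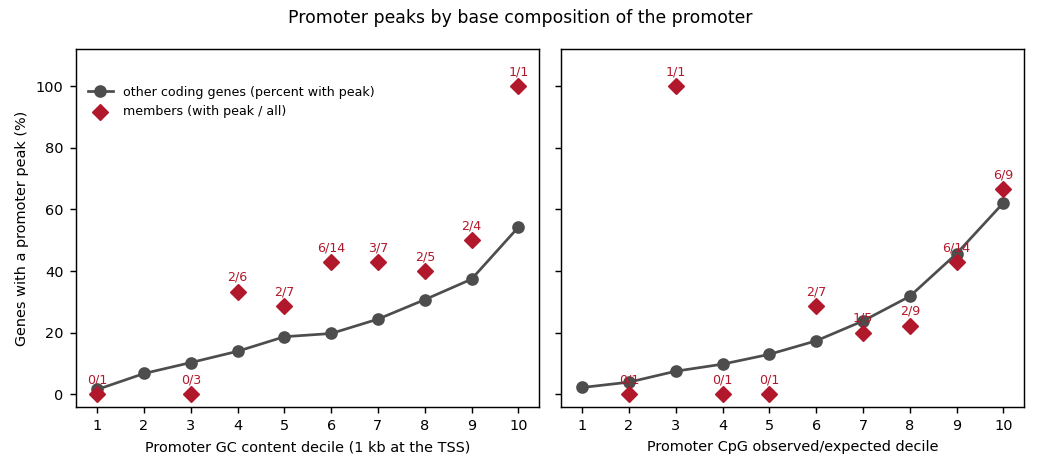
Percent of genes with an HBO1 promoter peak (y axis) by decile of promoter GC content (left) and of CpG observed/expected ratio (right), with other coding genes as the grey line and members as red diamonds labelled with peak/all. In the GC panel the line climbs from 1.54% to 54.2%, and the members of deciles 4 to 10 sit above it, decile 10 with 1 member. Those of deciles 1 and 3, at 0 of 1 and 0 of 3, sit below it. In the CpG panel the members of deciles 6 to 10 lie on both sides of a line that climbs from 2.19% to 62.1%. Decile 3 has 1 of 1 members with a peak, against 7.49% of other coding genes, and deciles 2, 4 and 5 have 0 of 1 each.

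The strength of the peaks was like that at other coding promoters. Taking the promoter peak of highest −log10 q for each of the 18 genes, the median of the authors' fold enrichment was 2.74, with a range from 2.12 at Rpa2 to 4.98 at Orc1, against a median of 2.61 at 4739 other coding genes. The median −log10 q was 8.25, from 4.87 at Mcm2 to 18.3 at Rfc5, against 8.21. Of the 18, 9 exceeded the median fold of their own GC decile and 10 the median −log10 q. Promoter peaks with −log10 q values from 10 upwards were present at 7 members, or 14.6%, against 7.96% of all coding genes, 7.77% of those of like GC content and 13.9% of those of like CpG ratio. These 7 were Rfc5, Orc2, Dbf4, Mcm7, Mcm6, Cdt1 and Rfc1.

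**Figure D2:**
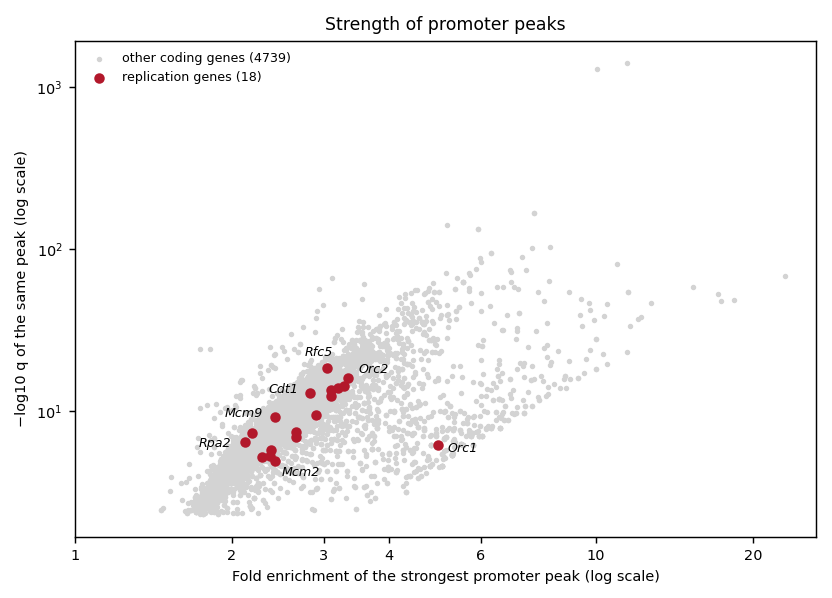
Fold enrichment (x axis) against −log10 q (y axis), both on log scales, for the strongest promoter peak of each gene, with 4739 other coding genes in grey and 18 replication genes in red. The replication genes lie inside the grey cloud, with Rfc5 highest at a −log10 q of 18.3 and Orc1 farthest to the right at a fold of 4.98.

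**Figure D3:**
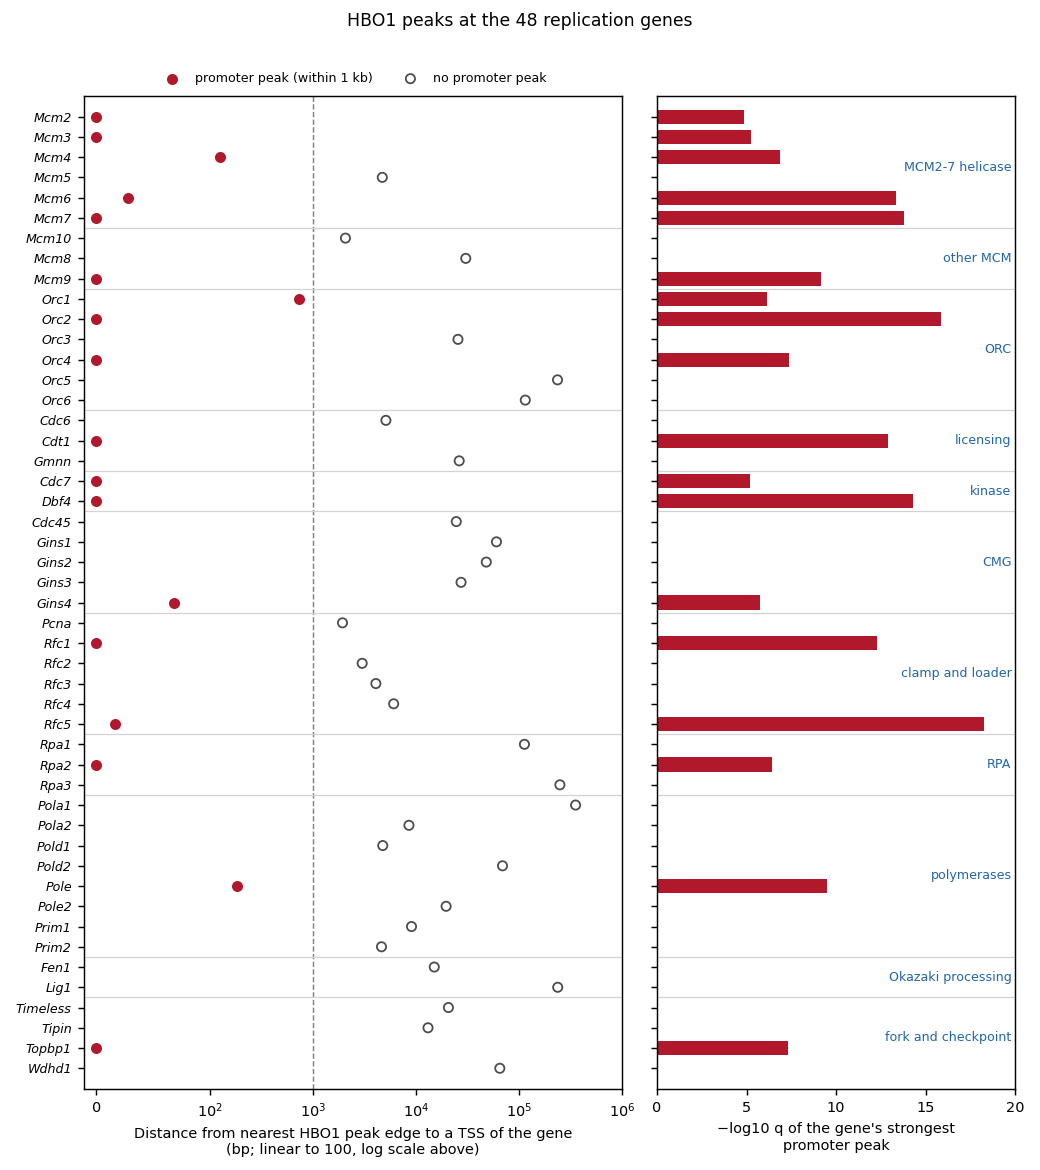
Each row is a replication gene, grouped by role, with the distance from the nearest peak edge to a TSS of the gene on the left (bp, log scale above 100) and the −log10 q of its strongest promoter peak on the right. The 18 red points lie left of the dashed 1-kb limit, and the open circles run from 1933 bp at Pcna to 356425 bp at Pola1.

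The genes of the MCM2-7 helicase, the ring that unwinds DNA at the fork, had promoter peaks at 5 of 6 subunits. Genes of like GC content would give 1.32 and those of like CpG ratio 1.82, without regard to the number of annotated starts. Mcm2 and Mcm7 had 7 and 10 such starts and the other subunits 3 to 5, against a median of 3 over all coding genes. Mcm6 had a peak of fold 3.10 and −log10 q 13.4, with its summit 125 bp downstream of a TSS. At Mcm4 the fold was 2.65 and the −log10 q 6.86, beside the start of the DNA repair kinase gene Prkdc. At Mcm3 the values were 2.37 and 5.27. Mcm2 differed in position: its peak at chr6:88892882-88893403 (fold 2.42, −log10 q 4.87) covered an internal TSS, with its summit 5556 bp downstream of the outermost start, and no peak lay within 1 kb of the outermost start.

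Mcm5 lacked a promoter peak, and its nearest peak lay 4711 bp from a TSS. That peak, at chr8:75115871-75116189, overlapped an exon with a fold of 5.97 and a −log10 q of 7.03, where the surrounding 1 kb of input held only 7 read ends. The outermost TSSs of Mcm5 and Mcm6 held 82 and 62 input read ends, at a GC content of 58.0% and 57.4%. Their CpG ratios were 0.771 and 0.829, in deciles where 31.8% and 45.7% of other coding genes had a promoter peak.

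Mcm7 carried 5 peaks within 1 kb of its annotated starts, a number that only 6 coding genes reached or exceeded. The peaks at +775 and +1325 bp from the outermost TSS were strongest, each with a −log10 q of 13.8 and with folds of 3.20 and 3.43. A peak at +10 bp, with a −log10 q of 8.67, lay where the 5′ end of Mcm7 overlaps that of Ap4m1. Ap4m1 is a gene on the opposite strand that encodes a subunit of an adaptor complex. The peaks at +10, +775 and +1325 bp all lay within 1 kb of an Ap4m1 start. That at +775 bp was also the strongest promoter peak of Ap4m1, with its summit at −355 bp from an Ap4m1 start. The remaining peaks lay near the 3′ end of the gene, over the Mir106b, Mir93 and Mir25 cluster, and counted as promoter peaks because an annotated Mcm7 transcript starts there. The peak at chr5:138165688-138166102 had a fold of 3.40 and a −log10 q of 10.1, and that at chr5:138165246-138165543 had a fold of 4.06 and a −log10 q of 11.3.

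The mature microRNAs of this cluster are shown as RefSeq gives them on GRCm38.p6, because these peaks lie on or beside them. Capitals mark the seed (bases 2 to 8).
miR-106b-5p chr5:138165787-138165807 (minus strand): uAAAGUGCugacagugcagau
miR-93-5p chr5:138165574-138165596 (minus strand): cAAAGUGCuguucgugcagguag
miR-25-3p chr5:138165332-138165353 (minus strand): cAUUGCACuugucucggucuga
The letters of miR-106b-5p and miR-25-3p lay inside a peak, and those of miR-93-5p lay 31 bp from the nearest peak edge. miR-106b-5p and miR-93-5p share a seed and miR-25-3p has another. The input at Mcm7 was highest 5100 bp downstream of the outermost start, with 35 read ends per 100 bp, and no peak was called there.

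**Figure D4:**
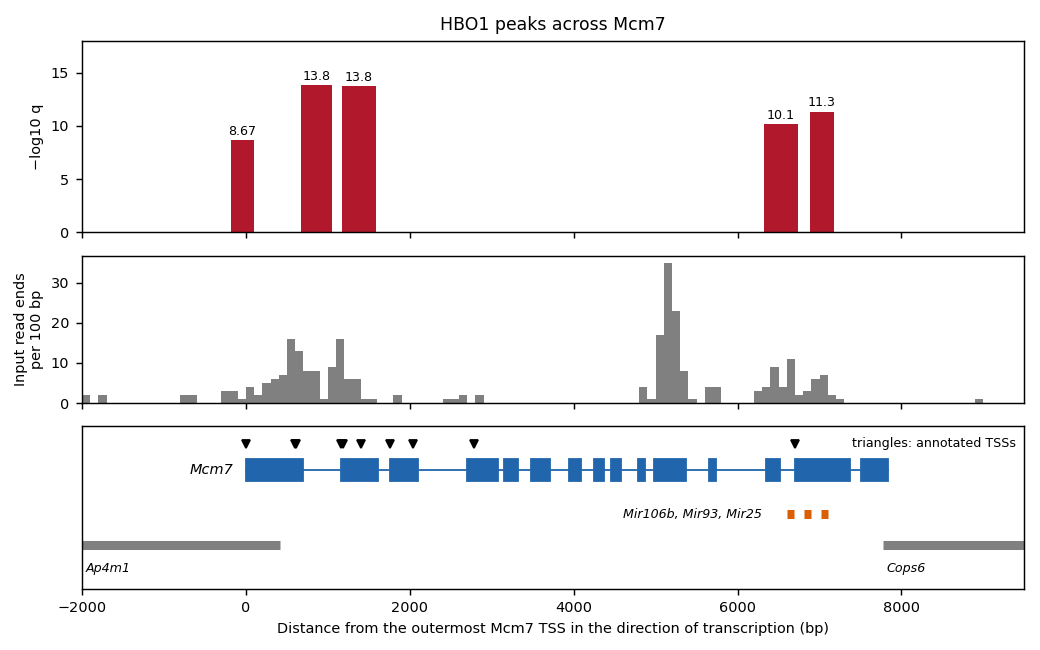
HBO1 peaks across Mcm7 by distance from the outermost TSS in bp, with the −log10 q of each peak as bar height (top), input read ends per 100 bp (middle), and exons, annotated starts and neighbouring genes (bottom). The 3 peaks near the 5′ end reach 8.67 to 13.8 and the others, over the microRNA cluster, reach 10.1 and 11.3, while the highest input column, 35 read ends, has no peak above it.

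Of the other 3 MCM genes, 1, Mcm9, had a promoter peak, against 0.486 at the like-GC share and 0.948 at the like-CpG share. Mcm8 and Mcm9 form a helicase that acts in recombination, and Mcm10 helps activate CMG. The strongest peak of Mcm9 (fold 2.42, −log10 q 9.14) lay 33296 bp downstream of the outermost TSS, at an internal start that coincides with the start of the histone chaperone gene Asf1a, so it cannot be assigned to either gene. A weaker peak lay near the main start, with a fold of 2.17 and a −log10 q of 6.28. Mcm10 had an intronic peak at chr2:5009732-5010280 with a fold of 5.45 and a −log10 q of 12.5, and its edge lay 2064 bp from the nearest TSS. Mcm8 had its nearest peak 30509 bp away.

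The genes of ORC, which marks origins, had promoter peaks at 3 of 6 subunits, against 1.29 at the share of genes of like GC content and 2.43 at that of like CpG ratio. At Orc2 the peak at chr1:58504539-58504936 had a fold of 3.34 and a −log10 q of 15.8, with an intronic summit 167 bp downstream of a TSS. Orc1, which encodes the subunit that HBO1 is known to bind, had the highest fold among the strongest promoter peaks of the 18 members, 4.98, but a −log10 q of 6.15 over 11 input read ends. The summit lay at −969 bp from the Orc1 start, inside Prpf38a, a splicing factor gene that starts beside Orc1 on the opposite strand. Orc4 had a peak of −log10 q 7.36 and another of 2.34, the latter next to the lowest value in the whole list, 2.30, and starts close to Mbd5. The nearest peaks to Orc3, Orc5 and Orc6 lay 25626, 237919 and 115636 bp from a start.

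Of the 3 licensing genes, 1 had a promoter peak, against 0.804 at the like-GC share and 1.40 at the like-CpG share. Cdt1, which helps load MCM2-7, had promoter peaks of −log10 q 12.9 and 8.86, with folds of 2.82 and 2.92. The stronger summit lay 200 bp downstream of a TSS, in an exon, and the input there was among the highest of the members, 100 read ends in 1 kb. Cdc6, the other loading factor, had its nearest peak 5105 bp from a start, and Gmnn, which encodes Geminin, had its own 26336 bp away.

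The kinase that fires licensed origins had promoter peaks at both of its genes, where genes of like GC content would give 0.786 and those of like CpG ratio 1.24. Dbf4, the activating subunit, had 2 peaks on either side of its start. The upstream peak, on the side of Slc25a40, had a fold of 3.28 and a −log10 q of 14.3 with its summit at −351 bp, and the downstream peak had 2.93 and 11.5. Cdc7, the catalytic subunit, had a weaker peak of fold 2.28 and −log10 q 5.21.

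Promoter peaks were at 1 of 5 genes of the proteins that join MCM2-7 as CMG. This was Gins4, with a fold of 2.38 and a −log10 q of 5.74, and the like-GC and like-CpG shares would give 0.846 and 1.46. The nearest peaks to Gins1, Gins2 and Gins3 lay 27448 to 60666 bp from a start. Cdc45 had no promoter peak but an intronic peak of fold 2.91 and −log10 q 3.32, 25239 bp downstream of its outermost start.

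The clamp and its loader had promoter peaks at Rfc1 and Rfc5, 2 of 6 genes, where genes of like GC content would give 1.11 and those of like CpG ratio 2.05. Rfc5, a small subunit of the loader, had the highest −log10 q of all members, 18.3, at chr5:117388576-117389005, with a fold of 3.04 and its summit 179 bp downstream of a TSS. Of all coding genes with a promoter peak, 88.1% had a lower −log10 q. Further peaks at +6530, +8423 and +9014 bp lay near internal starts of Rfc5, with −log10 q of 5.65, 6.50 and 10.0. Rfc1, the large subunit, had a peak of fold 3.10 and −log10 q 12.3. Pcna, the clamp itself, had no promoter peak, but its nearest peak, 1933 bp from a start, was the closest among the 30 genes without one. Rfc2 had an intronic peak of fold 3.91, and the 1 kb at its outermost start held 8 input read ends and a CpG ratio of 0.145. The nearest peaks to Rfc3 and Rfc4 lay 4079 and 6075 bp from a start.

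The sequence around the summits of Rfc5 and of the Mcm7 peak at +775 bp is shown because both summits lie in introns inside CpG-rich stretches, with CG dinucleotides in capitals and the summit at the middle base.
Rfc5 summit chr5:117388783-117388903 (minus strand): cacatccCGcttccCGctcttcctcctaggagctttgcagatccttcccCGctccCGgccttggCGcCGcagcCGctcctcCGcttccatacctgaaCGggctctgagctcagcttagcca
Mcm7 summit chr5:138171587-138171707 (minus strand): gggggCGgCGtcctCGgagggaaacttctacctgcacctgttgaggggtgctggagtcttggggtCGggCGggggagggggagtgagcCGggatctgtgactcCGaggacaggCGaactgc
These 121 bases held 9 CpGs at Rfc5 and 8 at Mcm7, at a GC content of 64.5% and 67.8%.

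Polymerases copy the strands and further enzymes join the pieces. Of 8 polymerase genes, only Pole, the catalytic subunit of the leading-strand polymerase, had one, where genes of like GC content would give 1.65 and of like CpG ratio 2.31. Its summit lay at −283 bp from the start, towards Pxmp2, with a fold of 2.90 and a −log10 q of 9.47. Prim2, a subunit of the primase that starts each strand, had an intronic peak of fold 4.20 at chr1:33637907-33638236. The nearest peaks to Pold1, Pola2 and Prim1 lay 4760, 8552 and 9056 bp from a start, and those to Pole2 and Pold2 19644 and 69458 bp. Neither Fen1 nor Lig1, which process and join Okazaki fragments, had a promoter peak, where the like-GC and like-CpG shares would give 0.326 and 0.416 genes. The nearest peaks lay 15073 and 238910 bp away. Pola1, the catalytic subunit of polymerase alpha and the only member on chromosome X, had 19 input read ends at its start. Of X-linked coding genes in its GC decile, 8.60% had a promoter peak, against 20.4% of autosomal ones, with median inputs of 24 and 55 read ends. The part of the lower input in the missing peak was not tested.

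Of the genes for RPA, which coats single-stranded DNA, only Rpa2, 1 of 3, had a promoter peak, against 0.811 at the like-GC share and 1.53 at the like-CpG share. It had the lowest fold of the members, 2.12, and a −log10 q of 6.41. A further peak in its 3′ part had a fold of 6.29 over 5 input read ends. The nearest peaks to Rpa1 and Rpa3 lay 113429 and 250800 bp from a start. Of the 4 fork and checkpoint genes, 1 had a promoter peak, against 1.08 and 1.99 at the same shares. This was Topbp1, an activator of the checkpoint kinase ATR, with a fold of 2.19 and a −log10 q of 7.33. Wdhd1, Timeless and Tipin, which stabilize the fork, had nearest peaks 65376, 20693 and 13101 bp from a start.

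The 30 genes without a promoter peak were not all far from one: 7 had a peak within 5 kb of a TSS, 19 had none within 10 kb and 6 had none within 100 kb. The median distance was 22677.5 bp. For coding genes without a promoter peak, the median distance was taken in each CpG decile, and the median of these values over members was 41712 bp. Members with and without a promoter peak had a median promoter GC content of 57.1% and 55.4%. Their median input was 63.5 and 56.5 read ends, and their median CpG ratio 0.847 and 0.762. Just inside the limit of 1 kb, the edge of the Orc1 peak lay 730 bp from the TSS, and just outside it those of Pcna and Mcm10 lay at 1933 and 2064 bp.

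With only the outermost TSS of each gene, 17 members had a promoter peak, or 35.4%, against 18.6% of all coding genes and 34.2% of those of like CpG ratio. Mcm2 was the member lost. A TSS lay inside a peak at 12 members, or 25.0%, against 11.0% of coding genes of like GC content. For this count no share over all coding genes or over those of like CpG ratio is given. For any peak within 1 kb, the share of like genes was 36.7% by CpG ratio and 21.9% by GC content. More than 1 promoter peak was found at 6 of the 18 members, or 33.3%, namely Mcm7, Rfc5, Mcm9, Orc4, Cdt1 and Dbf4, against 14.5% of coding genes with a promoter peak. The members also had more annotated starts, a median of 5 against 3 over all coding genes. Among genes with a promoter peak the medians were 6 and 5. The part of these starts in the number of promoter peaks per gene was not tested.

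The summits lay mostly just downstream of starts. Of the 18 strongest promoter peaks, 11 had their summit downstream of the nearest TSS, or 61.1%, against 72.6% at other coding genes, and 10 lay 100 to 400 bp downstream, or 55.6% against 46.9%. With only the outermost TSS of each gene, the member share downstream was 82.4%, and no such share is given for other coding genes. The median position was +134.5 bp for members and +141 bp for other coding genes. Counting all 29 promoter peaks of the members, the summits of 10 lay in an exon, 9 in an intron, 7 in a UTR and 3 outside the gene, the latter at Orc1, Dbf4 and Pole.

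**Figure D5:**
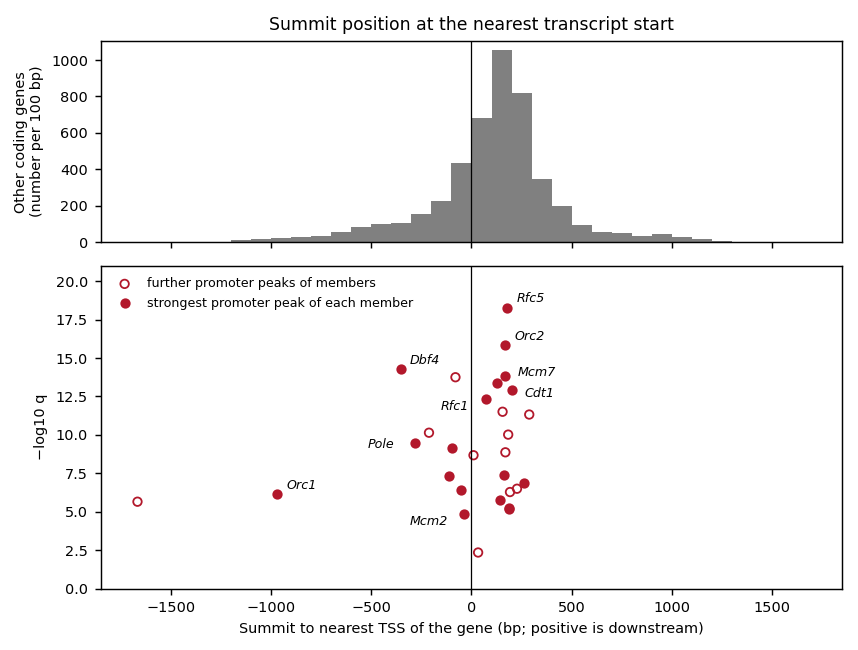
Distance from the summit to the nearest TSS of the gene (x axis, bp, positive downstream) for the strongest promoter peak of other coding genes (top, number per 100 bp, with 2 genes beyond the axis) and, for all 29 promoter peaks of replication genes, against −log10 q (bottom), filled where the peak is the strongest of its gene. Of the 18 filled points 10 lie between 100 and 400 bp downstream, as the histogram does at its highest, with Orc1 farthest upstream among them at −969 bp and a further peak of Rfc5 at −1666 bp.

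Some replication genes start close to another gene. Another coding TSS lay within 1 kb of a start at 18 of 48 members, or 37.5%, against 13.6% of coding genes. A promoter peak was found at 8 of these 18 members and at 10 of the other 30. Over coding genes the shares were 35.7% with such a neighbour and 19.5% without. At these 8 genes, Mcm4, Mcm7, Mcm9, Orc1, Orc4, Dbf4, Pole and Topbp1, a peak near both starts cannot be assigned to either gene. Noncoding neighbours were not counted here. The strongest promoter peaks of Rfc5 and Orc2 also lay within 1 kb of starts of the long noncoding RNA genes Gm15728 and Gm15834.

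Peaks in the gene body over 1 kb from any TSS were found at 7 members, or 14.6%, against 11.6% of all coding genes and 10.6% of those of like length. These were Mcm2, Mcm5, Mcm10, Cdc45, Rfc2, Rpa2 and Prim2, with 1 such peak each. Their folds ran from 2.91 to 6.29, while input around their summits was only 5 to 18 read ends, against a median of 66.5 at the promoter peaks.

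Motifs were counted in the reference sequence from 250 bases before to 50 after the outermost TSS. Members held E2F-type motifs, CCAAT and GGGCGG more often than coding genes, and TTTGAA less often. Only for the E2F-type motif is a share of genes of like CpG ratio given. E2F factors drive genes of the G1/S transition, and an E2F-type motif was present at 17 of 48 members, or 35.4%, against 2.79% of coding promoters and 4.42% of those of like CpG ratio. In a wider window of 500 bp either side of the outermost TSS, it was present at 25 members and 7.14% of coding promoters. CCAAT, the letters bound by NF-Y, was present at 30 members, or 62.5%, against 39% of coding promoters and 39.3% of those of like GC content. Both CCAAT and an E2F-type motif were held by 12 members, or 25.0% against 1.21%. GGGCGG was present at 35 members, or 72.9%, against 43.0% of coding promoters, and TTTGAA at 6 members, or 12.5%, against 16.4%. The octamer ATGCAAAT, which POU factors bind, was in none of the 48 windows and in 1.57% of coding promoters.

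Members with and without a promoter peak were also set side by side by motif, and the differences were not tested. A promoter peak was found at 7 of the 17 members with an E2F-type motif, or 41.2%, and at 11 of the 31 without, or 35.5%. For CCAAT the counts were 12 of 30 and 6 of 18. GGGCGG was present at 13 of the 18 members with a promoter peak and at 22 of the 30 without, and TTTGAA at 3 and 3. Over all coding genes, 34.7% of those with an E2F-type motif and 21.3% of those without had a promoter peak. For CCAAT these shares were 20.7% and 22.3%. GGGCGG was present at 63.5% of coding genes with a promoter peak and 37.3% of those without, and TTTGAA at 13.5% and 17.2%. None of these shares was matched for CpG ratio.

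Other genes serve replication without being among the 48. Of 36 genes for accessory factors, chromatin assembly and nucleotide supply, 18 had a promoter peak, or 50.0%, where genes of like GC content would give 10.4 and those of like CpG ratio 13.6. The 18 included 6 of 8 chromatin assembly genes, where genes of like CpG ratio would give 3.75. Among these, Asf1a counted by the peak that it shares with Mcm9, and Chaf1a by a peak over 4 input read ends. Of the accessory factors 10 of 22 had a promoter peak, against 7.89 at the like-CpG share, and of the nucleotide supply genes 2 of 6 did, against 1.97. The highest −log10 q was 31.2, at Rif1, which restrains late origins, followed by 25.9 at Supt16, a subunit of the histone chaperone FACT. Each exceeded the 18.3 of Rfc5. When peaks of over 100 input read ends were left out, promoter peaks were counted at 12 of the 36 genes and at 17 of the 48. The like-GC share for the 48 was then 17.8%. Under this limit no like-CpG share is given, and no share of like genes for the 36.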

How the data were processed

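HBO1 ChIP-seq (2 samples, 1 peak list, taken as that of both) and 1 input sample were analysed from the processed files. The authors aligned reads to mm10 with Novoalign 4.03.01 and called peaks with MACS2. The deposited peak list gives the authors' fold enrichment, a ratio over local background, and a −log10 q-value per peak. The deposited input gives read ends with a mapping quality score, unnormalized. No replicate values were held, so no test was run.

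Starts came from GENCODE vM21 and sequence from GRCm38. GC content and CpG observed/expected ratios were taken over 1 kb at the outermost TSS. The share of like genes was the mean, over members, of the share among non-member coding genes of the same decile. Of the shares, only that of members with a promoter peak is given with an exact binomial 95% interval. Python 3.11.15, numpy 2.4.6, scipy 1.17.1, pandas 2.3.3 and matplotlib 3.10.9 were used, and the assignment of peaks to starts was tested on simulated peaks. The members, the list of 36 other replication genes and the alternatives were chosen with earlier results of these data known. All members were named, and sequences were those of the 3 highest −log10 q and of Mcm2, Orc1 and Cdt1, with Mcm5, Mcm6, summits and microRNAs added after their values were seen.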

Additional observations from a re-analysis of the deposited data

How the results depend on the processing

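Of 44 alternatives, 27 kept counts within 1.5 times, and shares and medians within their interval or spread over genes, and 17 did not. The count of members with a promoter peak moved only when −log10 q had to reach 10, to 7, and was otherwise 12 to 19. Under the same limit the other replication genes fell to 8 and the members with a gene-body peak to 1, Mcm10. The share of coding genes of like GC content with a promoter peak, 21.9% as reported, was 18.8% with only the outermost TSS, 20.6% with TSSs of protein-coding transcripts, 20.7% within 500 bp, 23.4% within 2000 bp and 11.0% with the TSS inside the peak. It was 17.1% for −log10 q values from 5 upwards, 7.77% from 10 upwards, and 17.8% without peaks of over 100 input read ends. With another measure of likeness the share was 25.7% by GC of 300 bp and 36.7% by CpG ratio. Chosen after seeing the data, GC decile split at a CpG ratio of 0.6 gave 28.3%, input deciles 26.2%, and CpG decile with number of TSSs 39.0%. The member share divided by the like share was 1.71 as reported and 0.961 to 2.28 over these alternatives. Median input was 22 read ends in a 300-bp window. No replicate could be left out and no paired analysis was possible because 1 peak list was held, taken as that of both ChIP samples. The ChIP reads were not analysed here, and a missing peak shows only that none was called.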
